A study of Mus musculus with 16 samples.

Results

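The repressors of the circadian clock are described here in mouse lung after second-hand smoke. They comprise the period genes Per1, Per2 and Per3, the cryptochromes Cry1 and Cry2, the REV-ERB genes Nr1d1 and Nr1d2, and the DEC genes Bhlhe40 and Bhlhe41. These 9 genes were taken by their gene symbol in the array annotation, and they were measured by 18 of 45037 probe sets: 6 for Per3, 3 for Per2, 2 each for Nr1d2 and Bhlhe41, and 1 each for Per1, Cry1, Cry2, Nr1d1 and Bhlhe40. All samples were left lungs of male Balb/c mice aged 15 weeks, and each animal had 2 exposures, one before birth and one as an adult, each either to filtered air or to second-hand smoke (SHS, here sidestream smoke at 10 mg/m3 of particles for 5 hours a day, 7 days a week). The 2 letters of a group give the exposure in utero and then the adult exposure, with S for SHS and A for air: SS had SHS at both times, AS had air in utero and SHS as an adult, SA had SHS in utero and air as an adult, and AA had air at both times. Each group had 4 arrays, which the labels call separate animals. SS replicates 1 and 2, and AS replicates 3 and 4, were nearly identical to each other and may each come from 1 animal, which the labels do not settle, so each of these pairs was averaged into 1 sample and the groups held 3 SS, 3 AS, 4 SA and 4 AA samples. The animals were kept on a 12-hour light-dark cycle, and the labels give no hour of collection, so the time of day could not be entered in any fit and its part in the differences below was not tested.

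The circadian clock runs in nearly every mammalian cell, lung cells included, as a loop of transcription and repression. The activators CLOCK and BMAL1 (gene Arntl), or NPAS2 in place of CLOCK, bind E-box sequences and switch on the Per and Cry genes, whose proteins gather in the cytoplasm, enter the nucleus and block those same activators. REV-ERB alpha and beta (Nr1d1 and Nr1d2) form a side loop: they are nuclear receptors that bind ROR elements and repress Arntl, among other genes. DEC1 and DEC2 (Bhlhe40 and Bhlhe41) are basic helix-loop-helix proteins that compete at E-boxes. Transcripts of these genes rise and fall over the day, and Per1 in particular is also induced acutely through cAMP response elements and by glucocorticoids.

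The promoters show which of these inputs could be read in the sequence of a gene. RefSeq promoter windows (assembly GRCm38.p6, from 250 bases before to 50 bases after the annotated start, 300 bases in all) were matched for 7 of the 9 genes, with 2 starts for Per1 and so 8 windows. Per2 and Bhlhe40 had no window, so their promoters were not searched. The windows of 4 genes are printed 5′ to 3′ on the strand of the gene because they hold the matches that differ most between members: Per1 and Cry2, which rose with adult SHS, Cry1, which stood on the other side of 0, and Per3, which was not called. Capitals mark matches to the searched motifs on either strand. The more upstream of the 2 matched Per1 starts is called its upstream start, and its window lies at chr11:69098699-69098998 (plus strand). The annotated span of Per1 begins farther upstream, at chr11:69095108, where no window was matched. The window of Cry2 lies at chr2:92434020-92434319, that of Cry1 at chr10:85185005-85185304 and that of Per3 at chr4:151044616-151044915 (these 3 on the minus strand).
Per1: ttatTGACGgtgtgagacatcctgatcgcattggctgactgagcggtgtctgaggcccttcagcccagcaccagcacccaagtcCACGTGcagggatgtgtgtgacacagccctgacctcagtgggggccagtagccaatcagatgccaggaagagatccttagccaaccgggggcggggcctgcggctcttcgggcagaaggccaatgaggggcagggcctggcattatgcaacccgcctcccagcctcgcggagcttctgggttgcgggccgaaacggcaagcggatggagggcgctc
Cry2: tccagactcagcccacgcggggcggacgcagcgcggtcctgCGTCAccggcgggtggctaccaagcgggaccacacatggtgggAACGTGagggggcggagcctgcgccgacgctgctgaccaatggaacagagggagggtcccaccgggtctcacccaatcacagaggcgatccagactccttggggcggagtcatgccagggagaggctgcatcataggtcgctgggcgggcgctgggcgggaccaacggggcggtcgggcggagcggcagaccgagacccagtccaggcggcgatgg
Cry1: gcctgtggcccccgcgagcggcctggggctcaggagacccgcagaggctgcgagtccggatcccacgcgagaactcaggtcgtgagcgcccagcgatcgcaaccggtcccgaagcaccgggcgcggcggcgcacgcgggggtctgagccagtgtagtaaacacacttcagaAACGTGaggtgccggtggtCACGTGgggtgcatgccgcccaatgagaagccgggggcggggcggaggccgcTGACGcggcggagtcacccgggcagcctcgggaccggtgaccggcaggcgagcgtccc
Per3: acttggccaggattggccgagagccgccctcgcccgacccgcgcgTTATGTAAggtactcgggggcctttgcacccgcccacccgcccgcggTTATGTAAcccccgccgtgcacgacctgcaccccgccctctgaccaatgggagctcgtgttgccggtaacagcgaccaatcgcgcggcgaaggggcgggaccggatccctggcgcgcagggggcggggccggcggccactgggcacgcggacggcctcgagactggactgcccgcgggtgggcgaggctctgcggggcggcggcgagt
The E-box CACGTG, the site of the CLOCK and BMAL1 pair, was found 166 bases before the upstream start of Per1, 60 bases before that of Cry1 and 153 bases before that of Bhlhe41, and 7.15% of all 32851 RefSeq windows of this length held it. The E-box-like CACGTT was found on the opposite strand in Cry1, Cry2 and Nr1d1 (4.68% of all windows). Per3 held 2 copies of the D-box TTATGTAA, the site of DBP and TEF, at 205 and 158 bases before its start, and 0.938% of all windows held any. TGACG, part of the cAMP response element and short enough to be found in 20.8% of all windows, was present in both Per1 windows, in Cry1 and in Cry2 (on the opposite strand in Cry2). The whole element TGACGTCA (1.79% of windows), the ROR cores TAGGTCA (2.61%) and TGGGTCA (3.98%) and the glucocorticoid element core ACANNNTGT (6.85%) were found in 0 of the 8 windows, and Nr1d2 had no match to any motif. TGACG is contained in TGACGTCA, so those searches overlap. A match is a description of the letters and not a site shown to be used, and sites farther from the start were not searched.

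**Figure D1:**
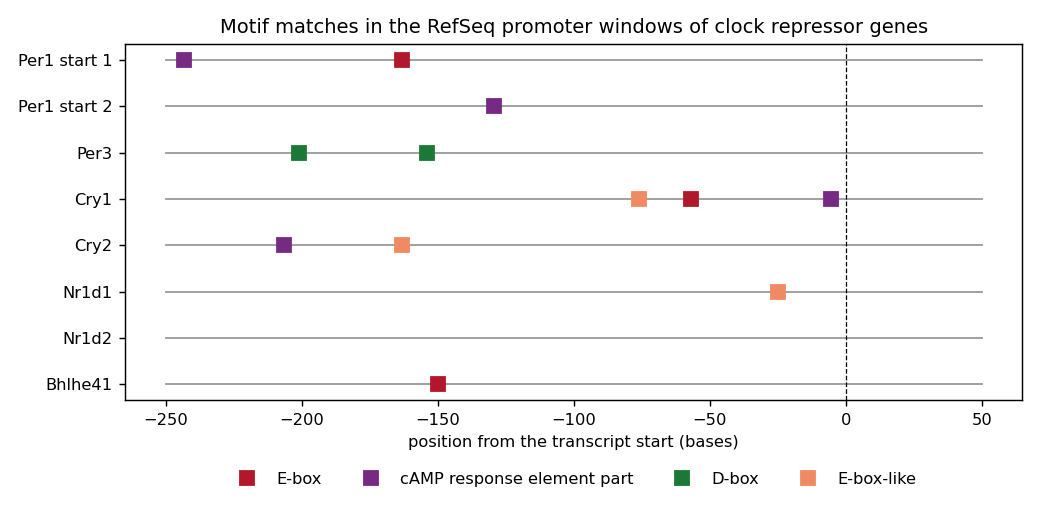
Motif matches by distance from the annotated start (in bases, on the x axis) in the 8 promoter windows of 7 clock repressors, 1 line per window. E-boxes lie at -166 in Per1 and -60 in Cry1, and the 2 D-boxes of Per3 lie at -205 and -158.

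Values are log2 expression as the authors deposited it, already normalized between arrays (array medians 6.9 to 6.93), so a difference of 1 is a doubling. The tissue label was checked on lung genes: Sftpc of alveolar type 2 cells was at 15.01 to 15.1, Scgb1a1 of club cells at 14.91 to 14.98 and Ager of alveolar type 1 cells at 14.29 to 14.64 in all samples, each near the top of the array. Of the marker lists for lung and other cell types, that of B cells had the median difference farthest from 0 in SS minus SA, at -0.69. Its mean level over 4 of 5 markers was 7.05 to 7.52 in SS, 7.9 to 8.52 in AS, 7.78 to 8.22 in SA and 7.56 to 8.34 in AA, with 0 of the 4 called in SS minus SA, and its part in the results was not tested. Of the markers in all lists, 1 was called in SS minus SA, Tcf21 of fibroblasts (-0.43, limma adjusted p = 0.0132). In AS minus AA, 3 were called: Scgb3a1 of club cells (0.89), Lrrn4 of mesothelial cells (-0.60) and Slc39a2 of alveolar macrophages (0.36). In the mean of these comparisons, limma called those 4 (Scgb3a1 0.72, Lrrn4 -0.47, Tcf21 -0.30 and Slc39a2 0.29) and Tekt1 of ciliated cells (-0.19), and the part of these cell types was not tested either. In SS minus AS, limma called Cd79a of B cells lower (-1.31, adjusted p = 0.0125), and the B cell median was -1.1. In SS minus AA it called Tcf21 (-0.45) and Lrrn4 (-0.57) lower. The part of these markers in those comparisons was not tested. In whole lung, fewer cells of a type and less RNA per cell cannot be told apart. Where a gene has several probe sets, the one with the highest mean stands for it and is called the brightest, and levels are compared only within a probe set. Nr1d1 overlaps Thra by 1075 bases at their 3′ ends in the annotation, and which of them its single probe set reads was not tested.

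Adult SHS after SHS in utero (SS minus SA) went with higher Per1, Per2, Cry2 and Bhlhe40. The test was limma's moderated test over all probe sets with Benjamini-Hochberg adjustment, and a probe set was called at an adjusted p under 0.05. It called 6 of the 18 repressor probe sets, all higher in SS (33.3%), against 0.773% of all probe sets called higher and 1.64% called in either direction. The groups did not overlap, with SS above SA, at 8 of the 18, against 7.97% of all probe sets, and the median difference of the 18 was 0.51 against 0.009 over all. The members were chosen with earlier results of these data known, so the shares over all probe sets are set beside them as a description.

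Per1, a period gene that is also induced acutely by light, hormones and stress, stood at 10.46, 10.00 and 10.18 in SS lungs (the last the averaged pair), against 9.41, 8.13, 8.55 and 8.77 in SA lungs. Each SS sample was above each SA sample, and SA was the more scattered group. The difference was 1.5 ± 0.23 (SE), or 2.82-fold with a 95% interval of 1.02 to 1.98 on the log2 scale, and had an adjusted p = 0.0044 in limma. Per2, a period gene whose protein binds the cryptochromes, had 8.92, 9.36 and 9.02 in SS, against 7.87, 7.83, 8.39 and 8.19 in SA at its brightest probe set. Its groups did not overlap there or at its other 2 probe sets. The 3 probe sets differed by 1.03 ± 0.24 (1417602_at, 2.04-fold, adjusted p = 0.0475), 1.14 ± 0.13 (1457350_at, adjusted p = 0.000852) and 0.87 ± 0.17 (1417603_at, adjusted p = 0.0213) in limma.

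Cry2, a cryptochrome that represses CLOCK and BMAL1 together with the PER proteins, had 9.38, 9.35 and 9.26 in SS, against 8.77, 8.74, 8.89 and 8.58 in SA. Both groups were tight, so a modest difference of 0.58 ± 0.08 (1.5-fold) had an adjusted p = 0.00171 in limma. Bhlhe40 (DEC1) had 10.51, 10.56 and 10.39 in SS, against 9.58, 9.57, 9.90 and 9.88 in SA. The difference was 0.76 ± 0.15 (1.69-fold, limma adjusted p = 0.0193), again with no overlap. The calls of Per1 and Cry2 were made in 25 of 25 settings of the analysis. Bhlhe40 passed the threshold in 19 of 25 and Per2 at its brightest probe set in 13 of 25: limma's adjusted p for Bhlhe40 was 0.053, 0.061, 0.106, 0.0786 and 0.0575 without SA replicate 1, SA replicate 2, SS replicate 3, SS replicate 4 and the averaged SS pair in turn. Without any 1 of those 5 samples, 3 repressor probe sets were called in place of 6, those of Per1 and Cry2 and 1 of Per2; the brightest Per2 probe set was not called then (adjusted p = 0.112, 0.121, 0.131, 0.185 and 0.127) nor without SA replicates 3 or 4, AA replicates 3 or 4 or AS replicate 1 (0.0635, 0.0631, 0.0546, 0.0592 and 0.0507).

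The other 5 repressors did not pass the test in SS minus SA. Nr1d2, which encodes REV-ERB beta, was at 12.37, 12.67 and 12.23 in SS and at 11.67, 12.01, 12.19 and 11.72 in SA. Each SS value was above each SA value, the closest being 12.23 and 12.19. The difference was 0.53 ± 0.15 (limma adjusted p = 0.101), and 0.61 ± 0.18 at its other probe set (adjusted p = 0.112). Nr1d2 was called with array weights (0.48, adjusted p = 0.0473 in limma) and, at the other probe set, without SA replicate 3 (0.75, 0.0498). Nr1d1, which encodes REV-ERB alpha, had 9.36, 10.10 and 9.32 in SS and 8.73, 9.29, 9.54 and 8.88 in SA. The groups overlapped, and the difference was 0.48 ± 0.22 (limma adjusted p = 0.341).

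Per3, the period gene that the core loop needs least, had 8.91, 9.53 and 8.81 in SS and 8.36, 8.76, 8.77 and 8.25 in SA at its brightest probe set, a difference of 0.55 ± 0.19 (limma adjusted p = 0.182). SS replicate 4 was well above the other samples. The other 5 probe sets of Per3 had differences between 0 and 0.46, so they did not all show the same size. Cry1, the cryptochrome whose transcript peaks late relative to the Per genes, was the only member whose brightest probe set was lower in SS, at 8.10, 8.18 and 8.2, against 8.33, 8.33, 8.22 and 8.33 in SA. The groups did not overlap, but the gap was small, -0.14 ± 0.09 (limma adjusted p = 0.516). Bhlhe41 (DEC2) was dim, in the 34.5th percentile of all probe sets, with 5.97, 5.98 and 5.78 in SS and 5.62, 5.90, 5.63 and 5.86 in SA. Its difference of 0.15 ± 0.10 was not called.

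**Figure D2:**
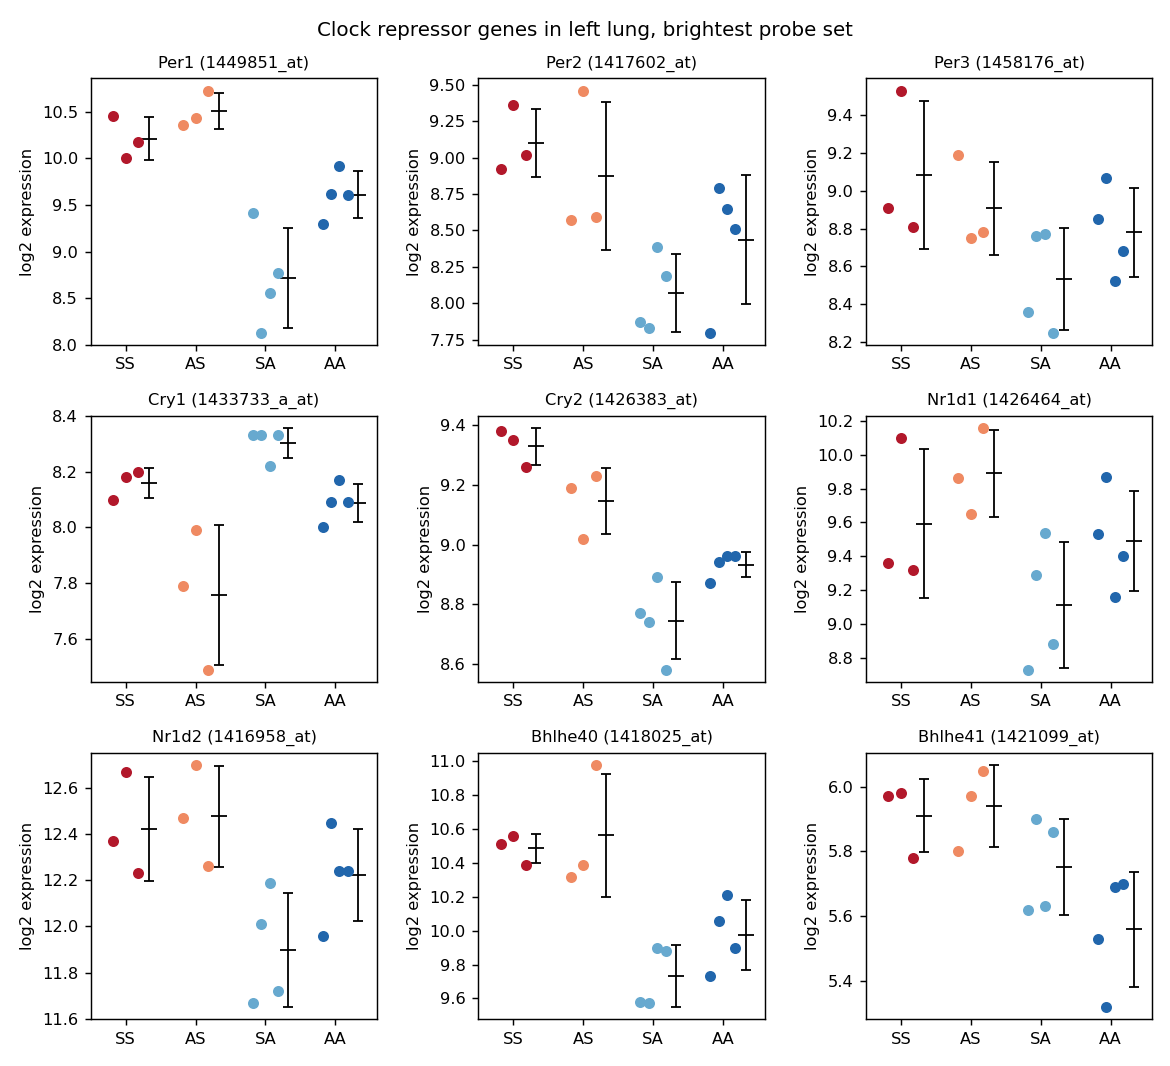
Log2 expression of the 9 clock repressors at the brightest probe set of each (y axis, a scale of its own per panel), with 1 point per sample and the mean ± SD beside each group, for SS, AS, SA and AA. SS and AS lie above SA for Per1, with SS at 10.00 to 10.46 and SA at 8.13 to 9.41, while Cry1 has its lowest values in AS.

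Adult SHS after air in utero (AS minus AA) gave differences of the same sign as SS minus SA for the brightest probe set of all 9 genes, and 0 of 18 passed the threshold, against 1.55% of all probe sets. By limma, 7 of the 18 had an unadjusted p under 0.05, against 20.3% of all probe sets. The groups did not overlap, with AS above AA, at 6 of the 18 (8.73% of all probe sets), and the median difference was 0.23 against 0.017 over all. The SS minus SA and AS minus AA comparisons share no samples, though all 4 groups share 1 estimate of the spread.

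Per1 was at 10.36, 10.44 and 10.73 in AS, against 9.30, 9.62, 9.92 and 9.61 in AA. The groups did not overlap, and the difference of 0.90 ± 0.23 had a limma adjusted p = 0.0585. Bhlhe40 was at 10.32, 10.39 and 10.98 in AS, against 9.73, 10.06, 10.21 and 9.90 in AA, again with no overlap (0.58 ± 0.15, limma adjusted p = 0.0618). The averaged AS pair was the highest sample of the 14 for both genes. Its arrays differed from AS replicates 1 and 2 over the least variable probe sets of the array too. The root mean square difference there was 0.207 to 0.257, against at most 0.132 for the other pairs within a group. The part of this in the repressor values was not tested.

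Cry1 was lower in AS, at 7.79, 7.99 and 7.49, than in AA, at 8.0, 8.09, 8.17 and 8.09, with no overlap (-0.33 ± 0.09, limma adjusted p = 0.079). Cry2 was at 9.19, 9.02 and 9.23 in AS and at 8.87, 8.94, 8.96 and 8.96 in AA (0.22 ± 0.08, adjusted p = 0.146 in limma). All AS samples were above all AA samples for Cry2, and the gap was under that in SS minus SA. Bhlhe41 had a difference of 0.38 ± 0.10 (limma adjusted p = 0.0762) and Nr1d1 of 0.40 ± 0.22 (adjusted p = 0.323). The other genes had 0.44 (Per2), 0.25 (Nr1d2) and 0.12 (Per3) at their brightest probe sets. Per1 was called here without SA replicate 1 (0.90, adjusted p = 0.0238) or SA replicate 2 (0.90, 0.0418), Bhlhe40 without AS replicate 1 (0.71, 0.048) and Cry1 without AS replicate 2 (-0.45, 0.0265). With all 16 arrays as separate samples, 6 of the 18 were called, and the share of all probe sets called was then 7.92%.

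Over both in-utero exposures, the adult SHS difference (the mean of SS minus SA and AS minus AA, called the average below) was called for 7 of the 9 genes, with 6 higher and Cry1 lower after adult SHS. Of the 18 probe sets, limma called 9 higher and 1 lower (55.6%), against 2.82% of all probe sets higher, 3.13% lower and 5.95% in either direction. Per1 rose by 1.20 ± 0.16 (2.29-fold, limma adjusted p = 0.00166). Bhlhe40 rose by 0.67 ± 0.11 (adjusted p = 0.00386 in limma) and Cry2 by 0.40 ± 0.05 (adjusted p = 0.00196). All 3 probe sets of Per2 rose, by 0.73, 0.77 and 0.72 (limma adjusted p = 0.0249, 0.00114 and 0.00602).

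The remaining calls lay near the threshold. Both probe sets of Nr1d2 rose, by 0.39 and 0.47 (limma adjusted p = 0.0433 and 0.0409), while Nr1d1, its paralogue, had 0.44 ± 0.16 (adjusted p = 0.105). Cry1 fell by 0.24 on the log2 scale (SE 0.07, limma adjusted p = 0.0454). Bhlhe41 rose by 0.27 at its brightest probe set (adjusted p = 0.0465 in limma), but its other, dimmer probe set had -0.05 (adjusted p = 0.763), so the 2 probe sets disagree. Per3 had 0.34 ± 0.13 (limma adjusted p = 0.132), and its other 5 probe sets had 0.07 to 0.25.

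Per1, Cry2 and Bhlhe40 passed the threshold for the average in 24 of 24 settings and Per2 at its brightest probe set in 21. That Per2 probe set was lost without SS replicate 4 (0.67, limma adjusted p = 0.0631), while the other 2 were still called. The calls of the other 3 genes were lost with single samples left out. Nr1d2 at its brightest probe set passed in 12 of 24 settings and was lost without AA replicate 1, 3 or 4, AS replicate 1 or 2, SA replicate 1, 2 or 4, or SS replicate 3 or 4, with limma adjusted p = 0.102 at the highest and differences of 0.33 to 0.41. Its other probe set was still called without AA replicate 3, SA replicate 2 or SA replicate 4. It was lost without the other 7 of those samples, AA replicate 2 or the AS pair (0.42 to 0.51, highest adjusted p = 0.101). Bhlhe41 passed in 9 of 23 and was lost without AA replicate 1 or 2, AS replicate 2, the AS pair, SA replicate 1 or 3, SS replicate 3 or 4, or the SS pair (0.23 to 0.30, highest adjusted p = 0.112). Cry1 passed in 7 of 24 and was lost without any single sample other than AS replicate 2 (-0.25 to -0.17, highest adjusted p = 0.112). Cry1 was also lost with the arrays centred on their median (-0.23, 0.0563) and, like Bhlhe41, under a further quantile normalization (-0.21, 0.0963). The brightest Nr1d2 probe set missed the threshold under that normalization too (0.38, 0.0522), and its other probe set did not.

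**Figure D3:**
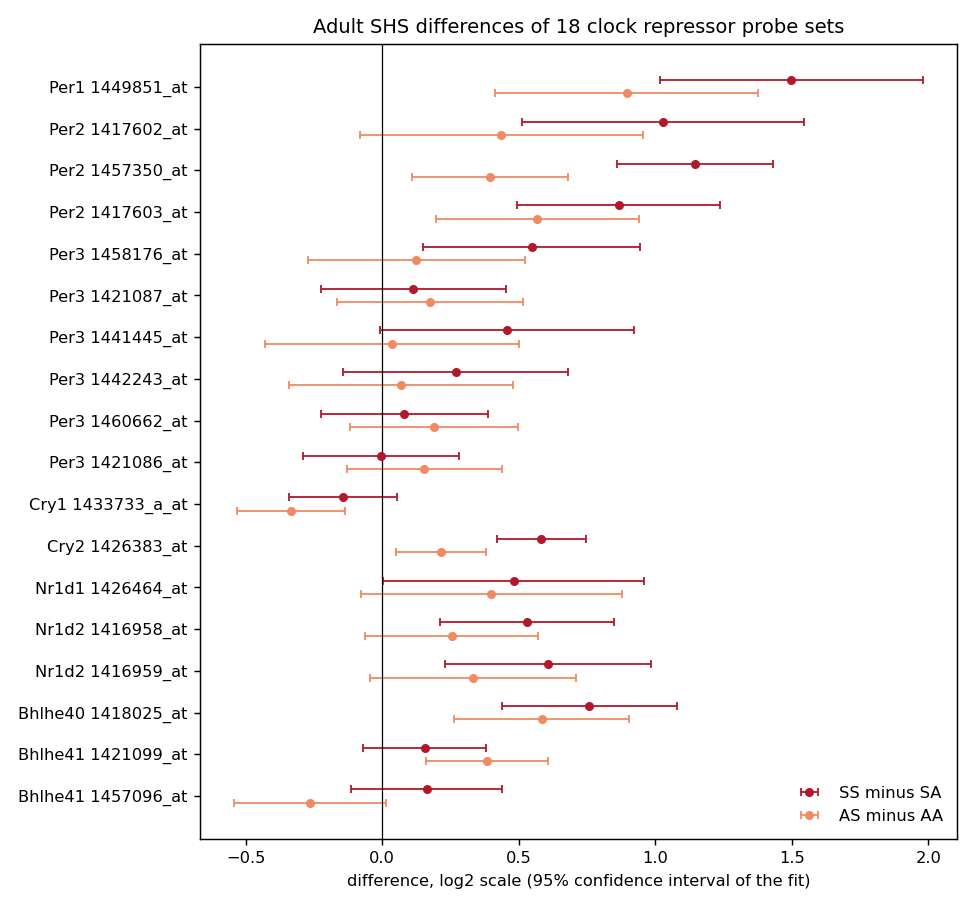
Difference in log2 expression with adult SHS (x axis) at the 18 probe sets, 1 row each, for SS minus SA and AS minus AA, with points for the differences and bars for 95% intervals of the fit. Per1 has 1.5 in SS minus SA and 0.90 in AS minus AA, and Cry1 lies below 0 in both.

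SHS in utero without adult SHS (SA minus AA) called 0 of the 18, and 0% of all probe sets passed in this comparison. At an unadjusted p under 0.05, limma had 6 of the 18, against 6.23% of all probe sets. The differences were negative at 16 of the 18, with a median of -0.25 against 0 over all. Per1 had the widest gap, -0.90 ± 0.21 (unadjusted p = 0.000651, adjusted p = 0.625 in limma), and its groups overlapped at 9.41 in SA and 9.30 in AA. Per2 had -0.37, -0.56 and -0.34, and at the probe set with -0.56 all SA values, 6.99, 6.87, 7.07 and 6.83, were below all AA values, 7.16, 7.5, 7.86 and 7.49 (limma adjusted p = 0.557). Cry1 was again on the other side of 0, at 0.21, with each SA sample above each AA sample (limma adjusted p = 0.76). How many of all probe sets had no overlap between SA and AA was not counted. SA minus AA and SS minus SA share the SA samples with opposite sign, so low SA values enter both.

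Against animals with adult SHS alone, SHS at both times (SS minus AS) called 0 of the 18, against 0.968% of all probe sets called. At an unadjusted p under 0.05, limma had 3 of the 18, against 13.6% of all probe sets, a share near that background. Differences were of both signs, 8 positive and 10 negative, with a median of -0.04. Cry1 was at 8.10, 8.18 and 8.2 in SS, against 7.79, 7.99 and 7.49 in AS (0.40 ± 0.10, limma adjusted p = 0.0735). It was called without AS replicate 2 (0.52, adjusted p = 0.0208), and 0 other repressors were called when any single sample was left out. Per1 had -0.30 ± 0.24 and Cry2 0.18 ± 0.08, neither called.

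SHS at both times against air at both times (SS minus AA) called 1 of the 18 (5.56%), Cry2, against 0.184% of all probe sets called higher and 0.4% in either direction. Cry2 rose by 0.40 (SE 0.08), 1.32-fold, with a limma adjusted p = 0.0389, and all 3 SS values, 9.26 to 9.38, were above all 4 AA values, 8.87 to 8.96. The call was lost without any single AA or SS sample, without SA replicate 1 or 2 and without AS replicate 1 (0.37 to 0.43, adjusted p = 0.237 at the highest). It was also lost with both averaged pairs left out together (0.43, 0.073). Per1 had 0.60 ± 0.23 (limma adjusted p = 0.351), Per2 had 0.58 ± 0.13 at 1457350_at (adjusted p = 0.0843) and Bhlhe40 had 0.51 ± 0.15 (adjusted p = 0.199), none of them called. How many of all probe sets had no overlap in this comparison was not counted. Without AA replicate 3, 1 probe set of Per2 passed in place of Cry2.

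Whether the adult difference depended on the exposure in utero was tested as the interaction, (SS minus SA) minus (AS minus AA). It called 0 of the 18, against 0.131% of all probe sets. At an unadjusted p under 0.05, limma had 3 of the 18, against 9.11% of all probe sets. Per2 at 1457350_at had the lowest p, with an interaction of 0.75 ± 0.19 (adjusted p = 0.165 in limma). Cry2 had 0.37 ± 0.11 (limma adjusted p = 0.245) and Per1 0.60 ± 0.32 with a 95% interval of -0.08 to 1.28 (adjusted p = 0.613). For 14 of the 18 probe sets the estimate was positive. The calls in SS minus SA without calls in AS minus AA are therefore not shown to differ between the 2 in-utero exposures.

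**Figure D4:**
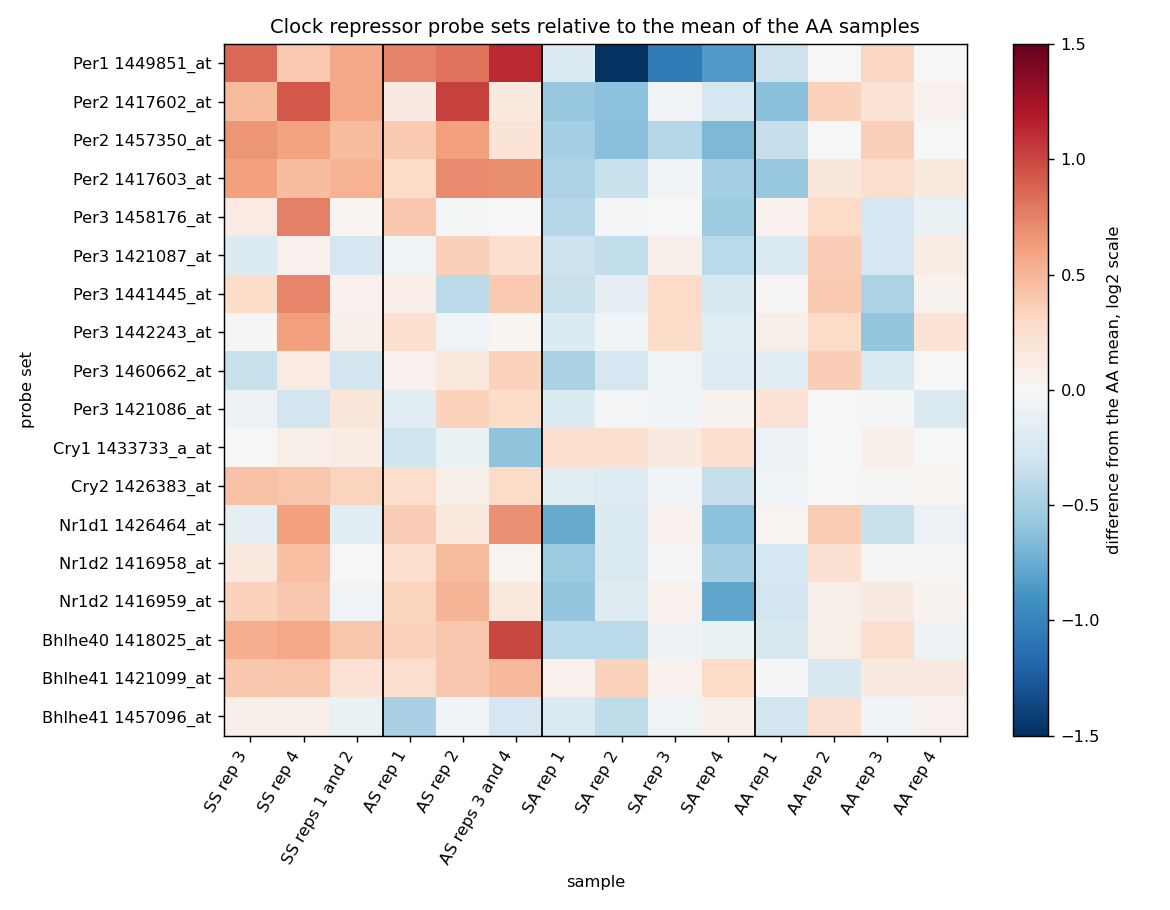
Log2 difference of each sample from the AA mean at the 18 repressor probe sets, 1 column per sample with SS and AS left of SA and AA, and 1 row per probe set. SA replicate 2 has the lowest Per1 value, at -1.48, and the averaged AS pair the highest, at 1.12.

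Sample by sample, the brightest probe sets of 8, 9 and 8 of the 9 genes were above the AA mean in the 3 SS samples, and of 8, 7 and 7 in the 3 AS samples. In the 4 SA samples the counts were 2, 2, 3 and 2, and in the AA samples themselves 2, 8, 7 and 6. AA replicate 1 thus stood with SA rather than with the other AA samples by this count, a description with no test. Group means ran in the order SA, AA and then the adult SHS groups, low to high, for 7 of the 9 genes, with AS highest for Per1, Nr1d1, Nr1d2 and Bhlhe40 and SS highest for Per2, Per3 and Cry2.

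For Per1 the means were 10.21 ± 0.23 in SS, 10.51 ± 0.20 in AS, 8.72 ± 0.53 in SA and 9.61 ± 0.25 in AA (SD, n = 3, 3, 4 and 4). Each step between neighbours in that order, SA to AA, AA to SS and SS to AS, missed the threshold. For Cry2 the means were 9.33 ± 0.06, 9.15 ± 0.11, 8.75 ± 0.13 and 8.93 ± 0.04 in SS, AS, SA and AA with the same n, and no neighbouring pair passed either. Cry1 ran the other way, with 8.16 ± 0.05 in SS, 7.76 ± 0.25 in AS, 8.30 ± 0.05 in SA and 8.09 ± 0.07 in AA (n as before). SA was its highest group and AS its lowest, and its neighbours in that order were not called apart. Bhlhe41 had its lowest mean in AA, at 5.56 ± 0.18, against 5.91 ± 0.11 in SS, 5.94 ± 0.12 in AS and 5.75 ± 0.15 in SA (n as before).

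Among the clock activators, the transcripts of Arntl, Npas2 and Clock were lower with adult SHS. The gene lists used from here on were chosen with earlier results of these data known, so their counts are a description. Of 6 activators measured of 7, limma called 2 lower in SS minus SA, 2 lower in AS minus AA and 3 lower in the average, with 0 higher. Over all genes at their brightest probe sets, 1.04%, 0.528% and 3.41% were called lower in these comparisons. Arntl, which encodes BMAL1, had 8.50, 7.82 and 8.49 in SS, against 9.19, 8.98, 9.12 and 8.92 in SA. In the other pair it had 8.29, 7.68 and 8.04 in AS, against 9.11, 8.56, 8.66 and 8.73 in AA. Neither pair of groups overlapped, and the differences were -0.78 (limma adjusted p = 0.0372) and -0.76 (adjusted p = 0.0455). Npas2, the CLOCK paralogue, had -1.29 in SS minus SA (limma adjusted p = 0.0235) and -0.84 in AS minus AA (adjusted p = 0.109). Clock had -0.19 (adjusted p = 0.263 in limma) and -0.34 (adjusted p = 0.0423) in the same order. The median of the 6 was -0.14 in the average, against 0.005 over all genes.

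Output genes of the clock were higher where they were called. Of 7 output genes, limma called 2 higher in SS minus SA, 0 in AS minus AA and 4 in the average, with 0 lower and medians of 0.66, 0.37 and 0.47. Over all genes at their brightest probe sets, 0.874%, 0.594% and 2.86% were called higher. Wee1, a kinase that holds the cell before mitosis, had 0.75 in SS minus SA (limma adjusted p = 0.00719), and Usp2, a deubiquitinase, had 0.72 (adjusted p = 0.00829). Dbp, the D-box activator, had 9.95, 10.97 and 9.66 in SS, against 8.30, 9.11, 9.71 and 8.48 in SA. These groups overlapped, and its difference of 1.29 was not called (limma adjusted p = 0.124), though the average of 1.01 was (adjusted p = 0.0448). Tef, its relative, had 0.44 in the average (limma adjusted p = 0.0124). Of 9 modifiers of clock proteins and further repressors measured of 10, limma called 0 in SS minus SA, 1 higher in AS minus AA and 2 higher in the average. These were Csnk1e, the casein kinase that phosphorylates PER proteins (0.55 in AS minus AA, adjusted p = 0.0455), and Ciart, a repressor of CLOCK and BMAL1 (0.30 in the average, adjusted p = 0.0121 in limma).

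**Figure D5:**
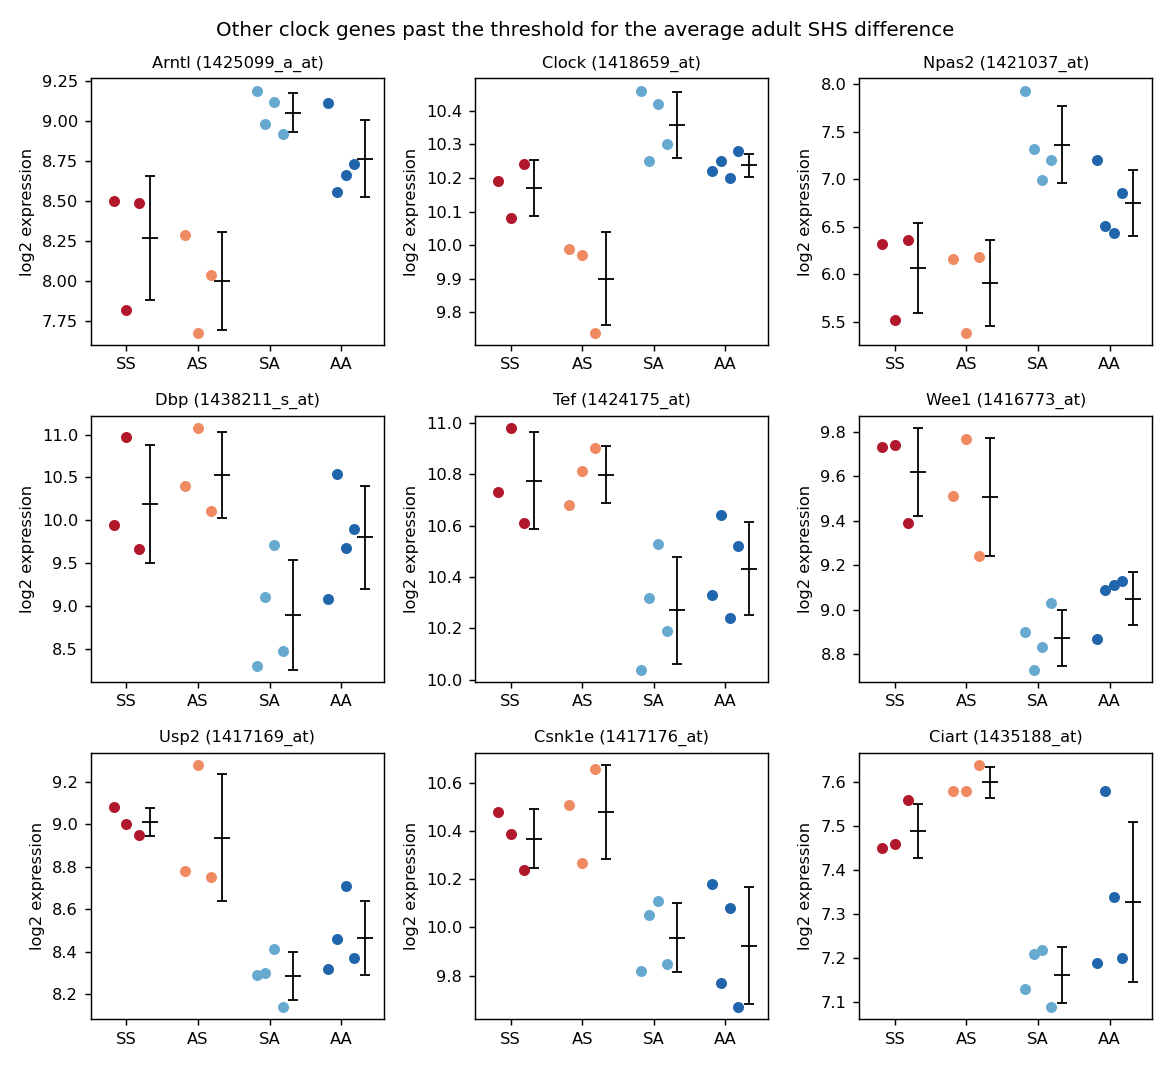
Log2 expression of the 9 other clock genes called for the average adult SHS difference (y axis, a scale of its own per panel), with 1 point per sample and mean ± SD for SS, AS, SA and AA. Arntl, Clock and Npas2 lie lower in SS and AS, and Arntl has 7.82 to 8.50 in SS against 8.92 to 9.19 in SA.

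Per1 is also a target of glucocorticoids and of cAMP signalling, and genes induced by those inputs were counted beside it. These lists too were chosen with earlier results of these data known, so their counts are a description and no test of the lists. Of 12 glucocorticoid-induced genes, limma called 8 higher in SS minus SA (median 1.09 against -0.007 over all genes, of which 0.874% were called higher), 2 higher in AS minus AA (median 0.43, with 0.594% of all genes called higher) and 0 in SA minus AA (median -0.31). Fkbp5, which binds the receptor's chaperone complex, had 10.25, 10.53 and 10.04 in SS, against 8.69, 7.78, 7.81 and 8.94 in SA (1.97, limma adjusted p = 0.01). Its SS values were all above its SA values. Cdkn1a, a cell cycle inhibitor, had 1.49 and Mt2, a metallothionein, 1.37 in that comparison, both called. Errfi1, a feedback inhibitor of the EGF receptor, had 1.28 in SS minus SA (limma adjusted p = 0.0101) and 1.02 in AS minus AA (adjusted p = 0.0401), where Dusp1, a phosphatase of MAP kinases, had 0.73 (adjusted p = 0.0259). Fkbp5 had 0.26 in AS minus AA and was not called (limma adjusted p = 0.691). Only Angptl4 (-0.79) and Pdk4 (-0.35) of this list were below 0 in AS minus AA, neither called.

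Of 16 immediate early and CREB target genes, limma called 1 higher in SS minus SA (Crem, 0.64), with 0.874% of all genes called higher. In AS minus AA it called 3 higher (Ier2 1.22, Junb 1.19 and Jun 0.53), with 0.594% of all genes called higher. In SS minus AS it called 7 lower (0.467% of all genes), where the median was -1.67 and Egr1 had -2.43, Fosb -2.36 and Fos -2.25. Junb had 8.11, 7.96 and 8.19 in SS, against 9.99, 10.44 and 9.34 in AS (limma adjusted p = 0.00119). Its SS values were all below its AS values. Of 9 hypoxia-induced genes, limma called Pfkfb3 (0.88), an activator of glycolysis, and Ndrg1 (0.60) higher in SS minus SA, 0 in AS minus AA. The median of this list in SS minus SA was 0.21, against -0.007 over all genes, of which 0.874% were called higher. Adm (-0.64) and Vegfa (-0.08) were below 0 in that comparison, neither called. In SA minus AA and in the interaction, 0 genes of any of these lists were called. The part of these inputs in the repressor values was not tested.

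The genes with the most similar pattern to each repressor over the 14 samples were found among 18184 other genes, as Pearson's r of log2 values at the brightest probe sets. The samples share group differences and 1 normalization, so r is a description. Nr1d2 was most like Dbp, with r = 0.99 and, after subtracting group means, r = 0.984. Per1 was most like Errfi1 (r = 0.945) and Cebpd (0.94), Cry2 like Pfkfb3 (0.937) and Sphk1 (0.914), and Bhlhe40 like Cldn3 (0.946) and Alas1 (0.939). Per2 was most like Tex11 (0.941) and Slc29a2 (0.882), Per3 like Acsl6 (0.897) and Rasgef1c (0.856), and Nr1d1 like Rasgef1c (0.881) and Tef (0.872). Cry1 was most like Csnk1a1 (0.973) and Mier1 (0.964), and the dim Bhlhe41 like Gzmf (0.915) and Muc20 (0.901). Tex11 came second for Nr1d2 (0.949). After subtracting group means, r with the first gene named was 0.458 for Cry2, 0.7 for Per1, 0.825 for Bhlhe40 and 0.862 for Per3. It was 0.89 for Bhlhe41, 0.895 for Per2, 0.901 for Nr1d1 and 0.933 for Cry1.

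Among the repressors, the closest pairs over the 14 samples were Per2 with Nr1d2 (r = 0.86), Per1 with Bhlhe40 (0.84), Cry2 with Bhlhe40 (0.83) and Per3 with Nr1d1 (0.81). Cry1 had a negative r with each of the others, from -0.71 with Nr1d1 to -0.23 with Per2. Once group means were subtracted, Cry1 had 0.55 with Per2 and 0.37 with Nr1d2. Its values with the remaining members were then -0.53 (Cry2) to -0.04 (Bhlhe41). After subtracting group means, Per3 with Nr1d1 (0.83) and Per2 with Nr1d2 (0.74) had similar values, whereas Per1 with Bhlhe40 had 0.33 and Cry2 with Bhlhe40 0.33. Per1 and Nr1d1 had r = 0.47 over the 14 samples and -0.52 within groups. Within groups Per1 also had a negative r with Per3 (-0.6) and Nr1d2 (-0.4). With 14 samples these values are imprecise.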

How the data were processed

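Total RNA of left lungs was hybridised to 16 Affymetrix mouse expression arrays. The authors deposited 1 log2 value per probe set and array. Per the submitters' processing notes limma was used (no version). How background was corrected and probes were summarised is not given in the sources used here. Detection could not be called without raw intensities, and dim probe sets stayed in. Of 45101 probe sets, 64 controls were left out. Gene names came from the platform annotation, updated through Entrez identifiers for 34741 probe sets: 34945 had 1 symbol, 932 several and 9160 none. Names were given to those with 1 symbol alone. For arrays, their number limits the precision.

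Replicates were compared within groups. Over the probe sets that varied most, relative to those that varied least, the root mean square difference had a ratio of 1.24 to 1.35 in the 2 averaged pairs and of 2.84 to 5.96 in the other 22. Over those that varied least, AS replicates 3 and 4 differed from AS replicates 1 and 2 by 0.207 to 0.257. The remaining pairs that were not averaged differed by 0.0728 to 0.132 there. A model with 4 group means was fitted to all 14 samples with limma 3.58.1 in R 4.3.3 (10 residual degrees of freedom, checked on simulated data), with two-sided tests and Benjamini-Hochberg adjustment over 45037 probe sets. Errors are SE of the fit unless named SD. P-values measure the spread between samples that the labels call separate animals, and no litter is given. Members and lists were chosen with earlier results of these data known. All 9 members were described. Of each list, up to 4 called genes in a comparison, or otherwise the gene with the largest change, could be named. Some uncalled genes were given as values beside them. The genes of highest r were named for each member. Alternatives were the 16 arrays as separate samples, a replicate block, other normalizations, array weights, a variance trend, an unmoderated test, a filter on means under 6, 1 probe set per gene, only the groups compared, and each sample left out. Whether replicate numbers pair the samples was not settled: 8 of 24 same-number pairs had a correlation of deviations above 0.1 (-0.157 to 0.251). The mean correlation was 0.039 for same-number pairs and -0.013 for the other pairs.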

Additional observations from a re-analysis of the deposited data

Results flagged for a closer look

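Per2 at 1417603_at in AA replicate 1 had 6.0, against 6.71 to 6.82 in the other 3 AA samples, far below them for the range of its group. Cry1 in SA replicate 3 had 8.22, against 8.33 in each of the other SA samples. These were found among 36 groups of 4 samples examined, and chance gives such a gap in about 1 of 20.

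For 4 probe sets, the effects of the same exposure pointed in opposite directions under the 2 levels of the other exposure, with every sample of each exposed group on its side of the mean of its own comparison group. Other probe sets had means of opposite sign but single samples that crossed, and they are not counted here. With SHS in utero, Per2 at 1457350_at had 0.19 between the SHS-exposed adults and -0.56 between the air-exposed adults, a difference of 0.75 (limma adjusted p = 0.165). Per2 at 1417602_at had 0.22 and -0.37, a difference of 0.59 (adjusted p = 0.65 in limma), and Cry2 had 0.18 and -0.18, a difference of 0.37 (limma adjusted p = 0.245). With adult SHS, Bhlhe41 at 1457096_at had 0.16 after SHS in utero and -0.26 after air in utero, a difference of 0.43 (limma adjusted p = 0.496). Each difference was tested as the interaction and missed the threshold.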

How the results depend on the processing

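Counts of called repressor probe sets are given by setting, beside the values reported. For AS minus AA, reported as 0, 6 were called with all 16 arrays as separate samples and 6 with a replicate block on those arrays, while the share of all probe sets called was 7.92% and 8.35%, against 1.55% as reported. For SS minus SA (6) the unmoderated test called 3, and for the average (10) it called 5 (0.671% and 3.95% of all probe sets). For SS minus AS (0), 1 was called with 16 arrays, 1 with the replicate block and 1 with array weights, each time Cry1 (4.92%, 5.25% and 2.62% of all probe sets). For SS minus AA (1), 2 were called with 16 arrays, 4 with the replicate block, 3 with array weights, 0 by the unmoderated test and 0 with both averaged pairs left out together, with shares of all probe sets of 0.901%, 0.957%, 1.76%, 0.0266% and 0.213% in that order, against 0.4% as reported. For the interaction (0), 1 was called with 16 arrays and 1 with the block, a Per2 probe set (0.733% and 1.17% of all). Whether the replicate numbers pair the samples was not settled, and 7 of 16 arrays correlated best with their own number. Leaving out each sample in turn gave 0 to 1 calls in AS minus AA, 3 to 6 in SS minus SA, 5 to 8 in the average, 0 to 1 in SS minus AS and 0 to 1 in SS minus AA. The shares of all probe sets called were then 0.411% to 2.01%, 0.38% to 2.25%, 2.29% to 8.03%, 0.302% to 1.13% and 0.0755% to 0.591% in that order. Leaving out both averaged pairs, chosen after seeing the data, gave 4 calls in SS minus SA and 7 in the average. Uncalled differences near 0 changed sign: SS minus AS was 0.09 (array weights) and 0.18 (both pairs left out) for Bhlhe40 and 0.04 and 0.08 for Bhlhe41, and the Nr1d1 interaction was -0.06 with 16 arrays and -0.06 with the block. With each sample left out, ranges spanned 0 in SS minus AS for Bhlhe40 (-0.20 to 0.14), Bhlhe41 (-0.10 to 0.03), Nr1d2 (-0.18 to 0.06) and Per3 (-0.05 to 0.32), for Per3 in AS minus AA (-0.02 to 0.22) and for Nr1d1 in SS minus AA (-0.15 to 0.24) and the interaction (-0.17 to 0.23). Of the values of the 9 genes at their brightest probe sets under the alternatives, 1434 kept direction and side of the threshold, 76 lost the call, 21 gained it and 19 changed sign. Calls gained or lost at the other probe sets of Per2 and Nr1d2 are not in these totals. The cause of these shifts was not tested. Limits are 3 or 4 samples a group, unknown normalization, unknown hour of collection and dim probe sets for Bhlhe41.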
